A study of Homo sapiens with 12 samples.

Results

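The genes described here are 38 human genes of the ATF4 stress response, of the 18852 genes that the array names. They were chosen by name: the transcription factors ATF4, ATF3, DDIT3, CEBPB and CEBPG, their feedback and stress effectors, and the enzymes, transporters and tRNA synthetases of amino acid supply. They have 53 probes. Of the 38, 37 genes with 45 probes were bright enough to test, against 11289 genes with 18177 probes on the whole array. ALDH1L2, a mitochondrial folate enzyme, was above background on 1 of 12 arrays and was not tested. RNA came from SKOV3ip, an ovarian cancer cell line named in the sample titles, while the source names give its parent SKOV3. There were 3 groups of 4 arrays: cells given an siRNA against EZH2, cells given a scrambled control siRNA, and cells that received no siRNA. EZH2 is the histone methyltransferase of Polycomb repressive complex 2, and the series title places it in the regulation of angiogenesis. The labels give neither the time after transfection nor the siRNA sequence, and they leave unsaid whether each array is a culture of its own. The p-values therefore measure the spread among arrays, and that spread may be technical.

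Cells sense missing amino acids, misfolded protein in the endoplasmic reticulum, double-stranded RNA and lack of heme through kinases that phosphorylate the translation factor eIF2 alpha. General translation then slows, while the mRNA of ATF4 is translated more, and ATF4 protein binds composite C/EBP-ATF elements in genes that make, import and charge amino acids onto tRNA. ATF4 works with C/EBP partners and with DDIT3 (CHOP), and is opposed by TRIB3 and by PPP1R15A (GADD34), the phosphatase subunit that restores translation. Because much of ATF4's control is translational, its mRNA level is not a measure of its protein.

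Promoter sequences close to the gene starts were searched for the core of the element that ATF4 binds. A gene without a match there may carry the element elsewhere. RefSeq promoters (GRCh38.p14), each reaching from 250 bases before a gene's start to 50 after it, were found for 33 of the 38 genes, with 51 promoters in all, and 14 of the 33 genes had several. ALDH1L2, SHMT2, YARS1, SLC7A11 and PSPH had no entry. The core of the C/EBP-ATF element, TGATGNAA read on either strand, was present in 13 of the 51 promoters (25.5%), one in each of 13 genes (39.4% of 33). Among all 35116 promoters in the table it was present in 1270 (3.62%), or in 1217 of 27305 genes (4.46%). Of the 13 matches, 12 are shown 5′ to 3′ on the strand that carries the element, with the element in capitals. They are shown because this is the core of the element that ATF4 binds.
ATF3, chr1:212565204-212565235, plus strand: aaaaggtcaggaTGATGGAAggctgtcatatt
CEBPG, chr19:33374059-33374090, plus strand: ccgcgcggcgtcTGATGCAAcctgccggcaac
CHAC1, chr15:40953250-40953281, minus strand: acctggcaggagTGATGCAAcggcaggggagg
ASNS, chr7:97872457-97872488, minus strand: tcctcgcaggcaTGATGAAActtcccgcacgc
SLC3A2, chr11:62881724-62881748, minus strand: ggagcTGATGTAAggagtcctgcac
SLC7A1, chr13:29595662-29595693, minus strand: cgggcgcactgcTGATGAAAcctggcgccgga
SLC1A5, chr19:46784892-46784923, minus strand: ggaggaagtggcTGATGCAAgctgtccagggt
SLC1A4, chr2:64989380-64989411, minus strand: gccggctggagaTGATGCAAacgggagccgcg
AARS1, chr16:70289674-70289705, plus strand: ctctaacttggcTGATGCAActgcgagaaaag
GARS1, chr7:30594833-30594864, minus strand: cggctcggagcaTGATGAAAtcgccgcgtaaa
NARS1, chr18:57621803-57621834, minus strand: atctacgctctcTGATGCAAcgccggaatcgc
MARS1, chr12:57488052-57488083, minus strand: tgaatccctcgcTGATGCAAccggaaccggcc

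Among the 12 shown, the element lay upstream of the start in ATF3, CEBPG, CHAC1, ASNS, SLC1A5, AARS1 and GARS1. It lay downstream in SLC3A2, SLC7A1 and NARS1, and across the start in SLC1A4 and MARS1. In ASNS, which encodes asparagine synthetase, it spanned bases -68 to -61. A match is a stretch of letters and not a measured binding site, and no binding of ATF4 was measured here. Where a gene had several promoters, a match in any of them counted, and which start the cells used was not measured.

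The cyclic AMP response element TGACGTCA, which ATF and CREB proteins bind, was present in 649 of the 35116 promoters (1.85%) and in 1 of the 51 member promoters. That promoter was PPP1R15A, with the element at bases -58 to -51. The ASNS and PPP1R15A promoters are shown whole on the gene's strand, with TGATGNAA capitalised in ASNS and TGACGTCA in PPP1R15A, because ASNS is a long-studied carrier of the C/EBP-ATF element and PPP1R15A had the largest change among the 37 genes with control siRNA.
ASNS, chr7:97872359-97872658, minus strand: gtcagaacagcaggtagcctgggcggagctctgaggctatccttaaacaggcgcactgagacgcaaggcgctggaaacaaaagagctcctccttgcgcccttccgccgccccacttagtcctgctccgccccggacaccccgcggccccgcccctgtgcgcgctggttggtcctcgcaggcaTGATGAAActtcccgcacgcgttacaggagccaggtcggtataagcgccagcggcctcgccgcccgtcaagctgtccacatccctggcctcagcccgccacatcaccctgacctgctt
PPP1R15A, chr19:48872171-48872470, plus strand: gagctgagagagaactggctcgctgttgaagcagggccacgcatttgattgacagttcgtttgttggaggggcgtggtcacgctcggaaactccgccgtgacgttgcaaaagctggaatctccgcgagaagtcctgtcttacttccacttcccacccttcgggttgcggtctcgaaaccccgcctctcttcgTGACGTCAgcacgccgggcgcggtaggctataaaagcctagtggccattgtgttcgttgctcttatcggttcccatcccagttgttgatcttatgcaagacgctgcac

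The arrays differed in brightness, and EZH2 mRNA was lower with its siRNA. Mean raw signal was 240.4 ± 50.2 intensity units with EZH2 siRNA, 327 ± 41.7 with control siRNA and 299 ± 106.0 in untransfected cells (SD, n = 4 each). EZH2 siRNA arrays 1 and 4 and untransfected array 4 were the dimmest. The brightest EZH2 probe averaged 6.68 ± 0.24 with EZH2 siRNA, 7.56 ± 0.17 with control siRNA and 7.98 ± 0.26 in untransfected cells on the normalized log2 scale. EZH2 fell by 0.88 against control siRNA (SE 0.14, adjusted p = 0.00145 in limma). EZH2 probe ILMN_2364529 fell by 0.67 at that step (adjusted p = 0.0186), and probe ILMN_1652913 had -0.53 and was not called (adjusted p = 0.0620). With control siRNA against untransfected cells ILMN_2364529 fell by 0.62 (adjusted p = 0.0202), while the brightest probe had -0.43 (adjusted p = 0.0897) and ILMN_1652913 had -0.42 (adjusted p = 0.130). All levels below are normalized log2 signals, and a gene is called when its adjusted p is under 0.05 (limma, Benjamini-Hochberg over all tested probes). In RNA from a whole culture, fewer cells of a type and less RNA per cell cannot be told apart. All 9 epithelial and SKOV3 marker genes were tested, with MUC16 near background (above it on 2 of 4 arrays in each group). With control siRNA against untransfected cells PAX8 rose by 0.66 (adjusted p = 0.00302 in limma) and KRT7 fell by 0.53 (adjusted p = 0.0146). PTPRC and CD14 (leukocytes), CDH5 and VWF (endothelium) and LUM and PDGFRB (fibroblasts) were above background on 0 of 12 arrays. CD3D (leukocytes), TEK (endothelium) and COL1A1 and DCN (fibroblasts) were also too dim to test. The remaining leukocyte, endothelial and fibroblast markers with a tested probe lay near background and were not called at either step. LYZ (leukocytes) was above background on 2 of 4 arrays in each group, PECAM1 (endothelium) on 2 with EZH2 siRNA, 4 with control siRNA and 3 in untransfected cells, and KDR (endothelium) on 2, 1 and 2 in the same order. COL3A1 (fibroblasts) was above background on 0, 4 and 2 arrays, and its change with EZH2 siRNA against control siRNA was -0.41 (adjusted p = 0.0671). Their part in the results was not tested.

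With EZH2 siRNA, 5 of the 37 genes rose against control siRNA and 0 fell in limma, where 9 higher and 4 lower genes had an unadjusted p under 0.05. The 5 were DDIT4, PCK2, DDIT3, TRIB3 and PHGDH. Over all genes 2.02% were called higher and 2.73% lower in this comparison. Of all 18177 tested probes 3333 had an unadjusted p under 0.05 in limma, in either direction. The median log2 change of the 37 genes was 0.09, beside -0.02 for all tested genes. It turned to -0.19 when arrays were scaled by their 75th percentile, where 0 members and 9 probes of the whole array were called higher and 135 lower. As normalized here, 316 probes were called higher and 415 lower.

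With control siRNA, 8 of the 37 genes rose against untransfected cells and 0 fell in limma, where 14 higher and 3 lower genes had an unadjusted p under 0.05. The 8 were PPP1R15A, DDIT4, ATF3, DDIT3, CEBPB, SLC38A2, TRIB3 and WARS1. The background was 4.75% of genes called higher and 2.86% called lower, and the member median was 0.11 beside 0.02 for all genes. At this step 3423 of the 18177 tested probes had an unadjusted p under 0.05 in limma, in either direction. DDIT3, DDIT4 and TRIB3 are in both sets of called genes. Both comparisons use the same control siRNA arrays, so a low control value raises one change and lowers the other.

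Set against untransfected cells, the EZH2 siRNA cells showed 15 of the 37 genes higher and 2 lower. The background was 9.87% of genes higher and 8.27% lower, and the member median was 0.28 beside -0.0023 for all genes. This comparison spans both steps and shares the EZH2 siRNA arrays with the first and the untransfected arrays with the second. It is given below mainly for genes that passed the test in it alone.

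**Figure D1:**
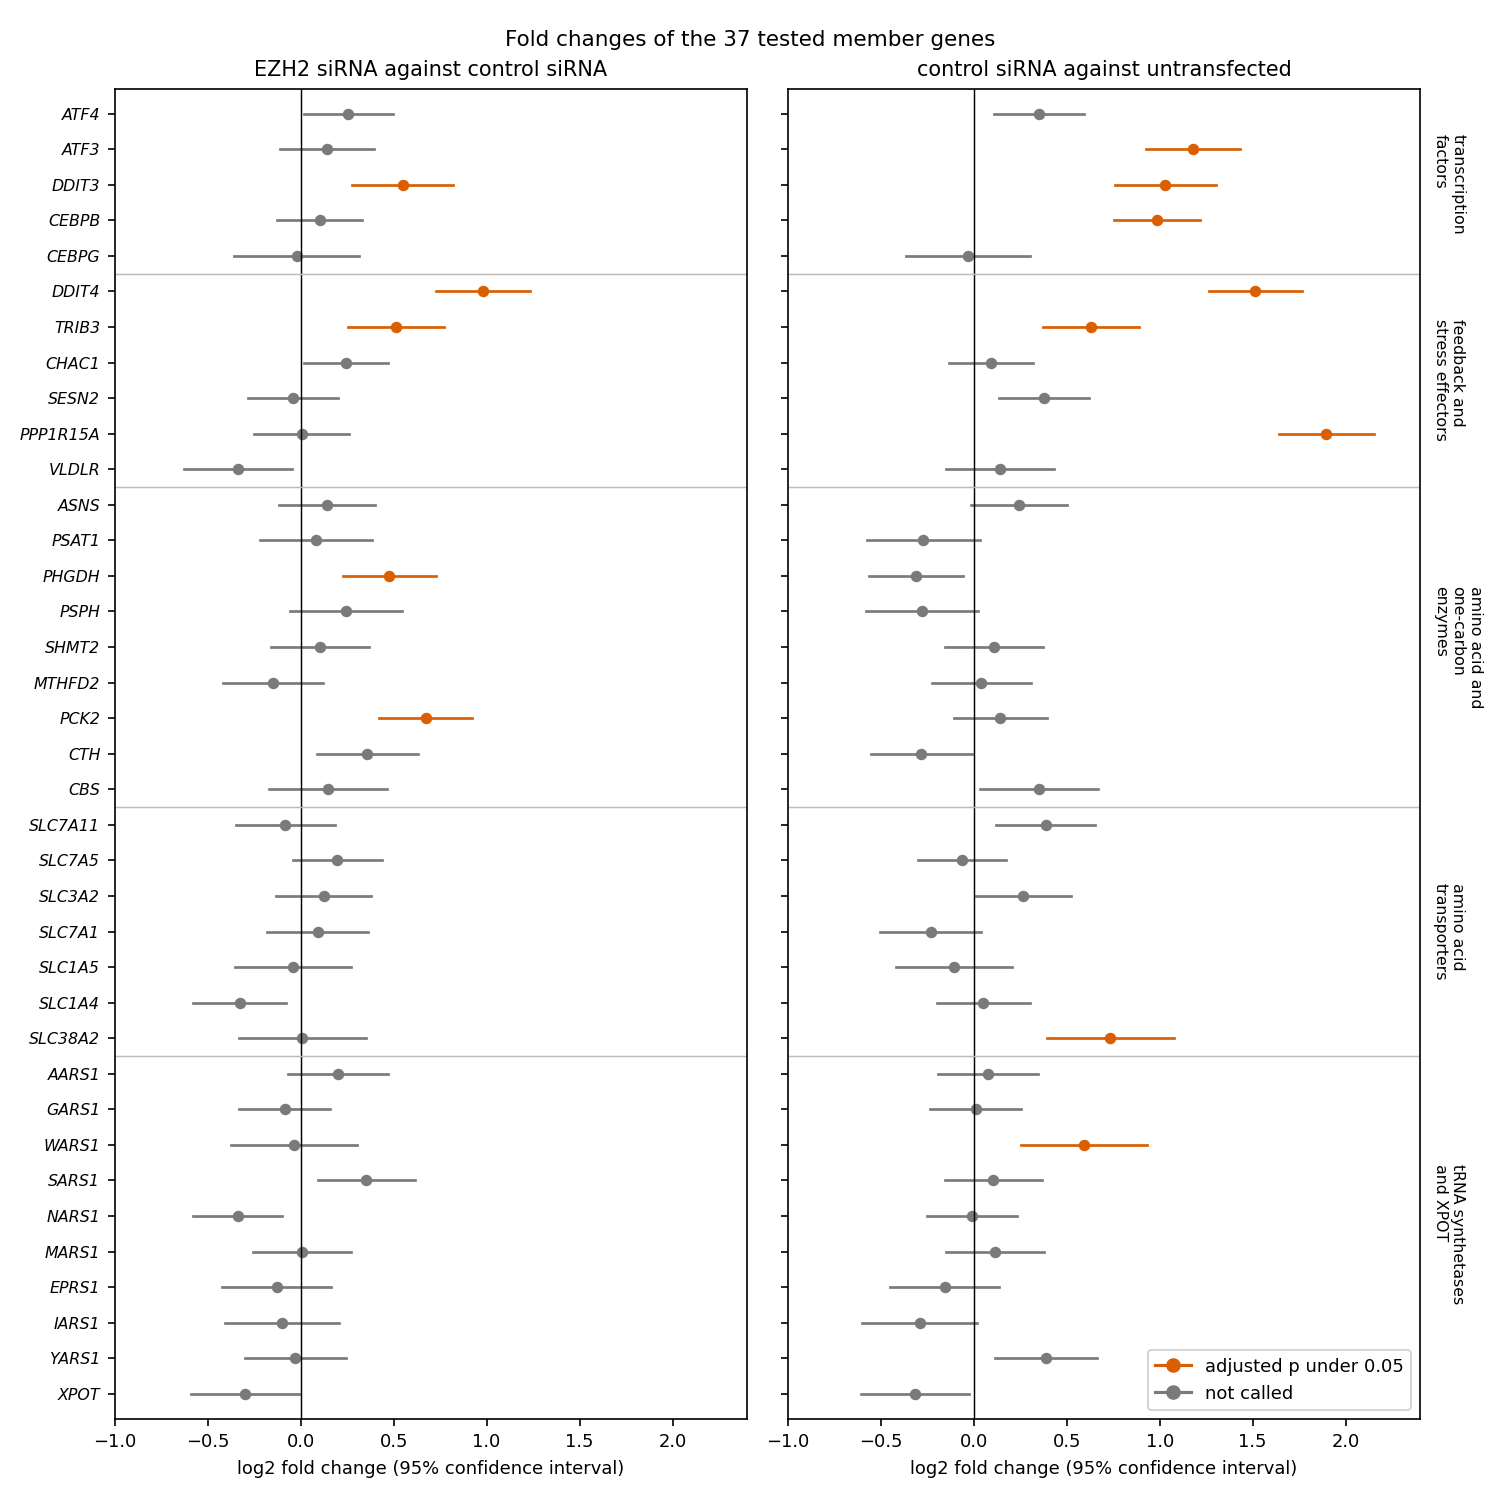
Log2 fold changes (x axis) of the 37 tested genes (y axis, grouped by role) with 95% confidence intervals, for EZH2 siRNA against control siRNA on the left and control siRNA against untransfected cells on the right. Orange points passed an adjusted p of 0.05. DDIT4 has the largest change on the left (0.98) and PPP1R15A on the right (1.90), and PPP1R15A lies at 0.0049 on the left.

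Among the 5 transcription factors, DDIT3 rose at both steps, and ATF3 and CEBPB rose with control siRNA. DDIT3 (CHOP), a C/EBP family factor of prolonged stress, read 8.90, 8.79, 8.56 and 8.78 on the EZH2 siRNA arrays, against 8.45, 8.19, 8.30 and 7.90 with control siRNA and 7.07, 7.07, 7.16 and 7.42 in untransfected cells. The 3 groups did not overlap, in the order EZH2 siRNA, control siRNA, untransfected. DDIT3 rose by 0.55 with EZH2 siRNA against control siRNA (SE 0.13, adjusted p = 0.0214 in limma) and by 1.03 with control siRNA against untransfected cells (adjusted p = 3.33e-05). Together the steps left it 2.99-fold higher with EZH2 siRNA than in untransfected cells. The rise against control siRNA lost its call without control array 2, 3 or 4 or EZH2 siRNA array 1 or 4, with adjusted p between 0.0505 and 0.0947.

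ATF3, a stress-induced bZIP factor with a promoter entry that holds the element above, read 8.38, 8.19, 8.20 and 8.43 with EZH2 siRNA, against 8.18, 8.15, 8.26 and 8.04 with control siRNA and 6.90, 6.73, 7.25 and 7.03 in untransfected cells. Both transfected groups lay above every untransfected array and overlapped each other. ATF3 was 2.26-fold higher with control siRNA than in untransfected cells (log2 change 1.18, SE 0.12, adjusted p = 2.36e-06 in limma). The further change with EZH2 siRNA was 0.14 (adjusted p = 0.593).

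CEBPB, a C/EBP factor that pairs with ATF4, had a similar layout. Its levels were 11.59, 11.37, 11.63 and 11.73 with EZH2 siRNA, against 11.39, 11.41, 11.61 and 11.51 with control siRNA and 10.42, 10.48, 10.61 and 10.46 in untransfected cells. The transfected groups again overlapped each other and stood clear of the untransfected arrays. CEBPB rose by 0.99 with control siRNA (adjusted p = 7.04e-06 in limma), and the change with EZH2 siRNA against control siRNA was 0.10 (adjusted p = 0.696). CEBPG, another C/EBP partner of ATF4, changed by -0.02 and -0.03 at the same steps and was not called.

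ATF4 itself was bright and gave different answers on its probes. Probe ILMN_1672128 read 13.11, 13.13, 13.16 and 13.16 with EZH2 siRNA, against 13.02, 12.70, 12.81 and 13.01 with control siRNA and 12.50, 12.76, 12.55 and 12.34 in untransfected cells. All EZH2 siRNA arrays lay above all control arrays, but the difference of 0.25 was not called (SE 0.12, adjusted p = 0.239 in limma). Control and untransfected arrays overlapped (0.35, adjusted p = 0.0801), and only EZH2 siRNA against untransfected cells was called, with a rise of 0.61 (adjusted p = 0.00135).

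The dimmer ATF4 probe ILMN_2358457 read 9.80, 9.08, 9.02 and 9.22 with EZH2 siRNA, against 8.78, 8.86, 8.49 and 8.63 with control siRNA and 8.73, 8.70, 8.39 and 8.49 in untransfected cells. Here the control and untransfected arrays overlapped, and EZH2 siRNA array 1 stood highest. This probe rose by 0.59 with EZH2 siRNA against control siRNA (adjusted p = 0.0335 in limma) and changed by 0.11 with control siRNA (adjusted p = 0.783). Since the brighter probe stands for the gene, ATF4 is not among the 5 genes called. Whether the probes read different transcript forms was not tested.

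**Figure D2:**
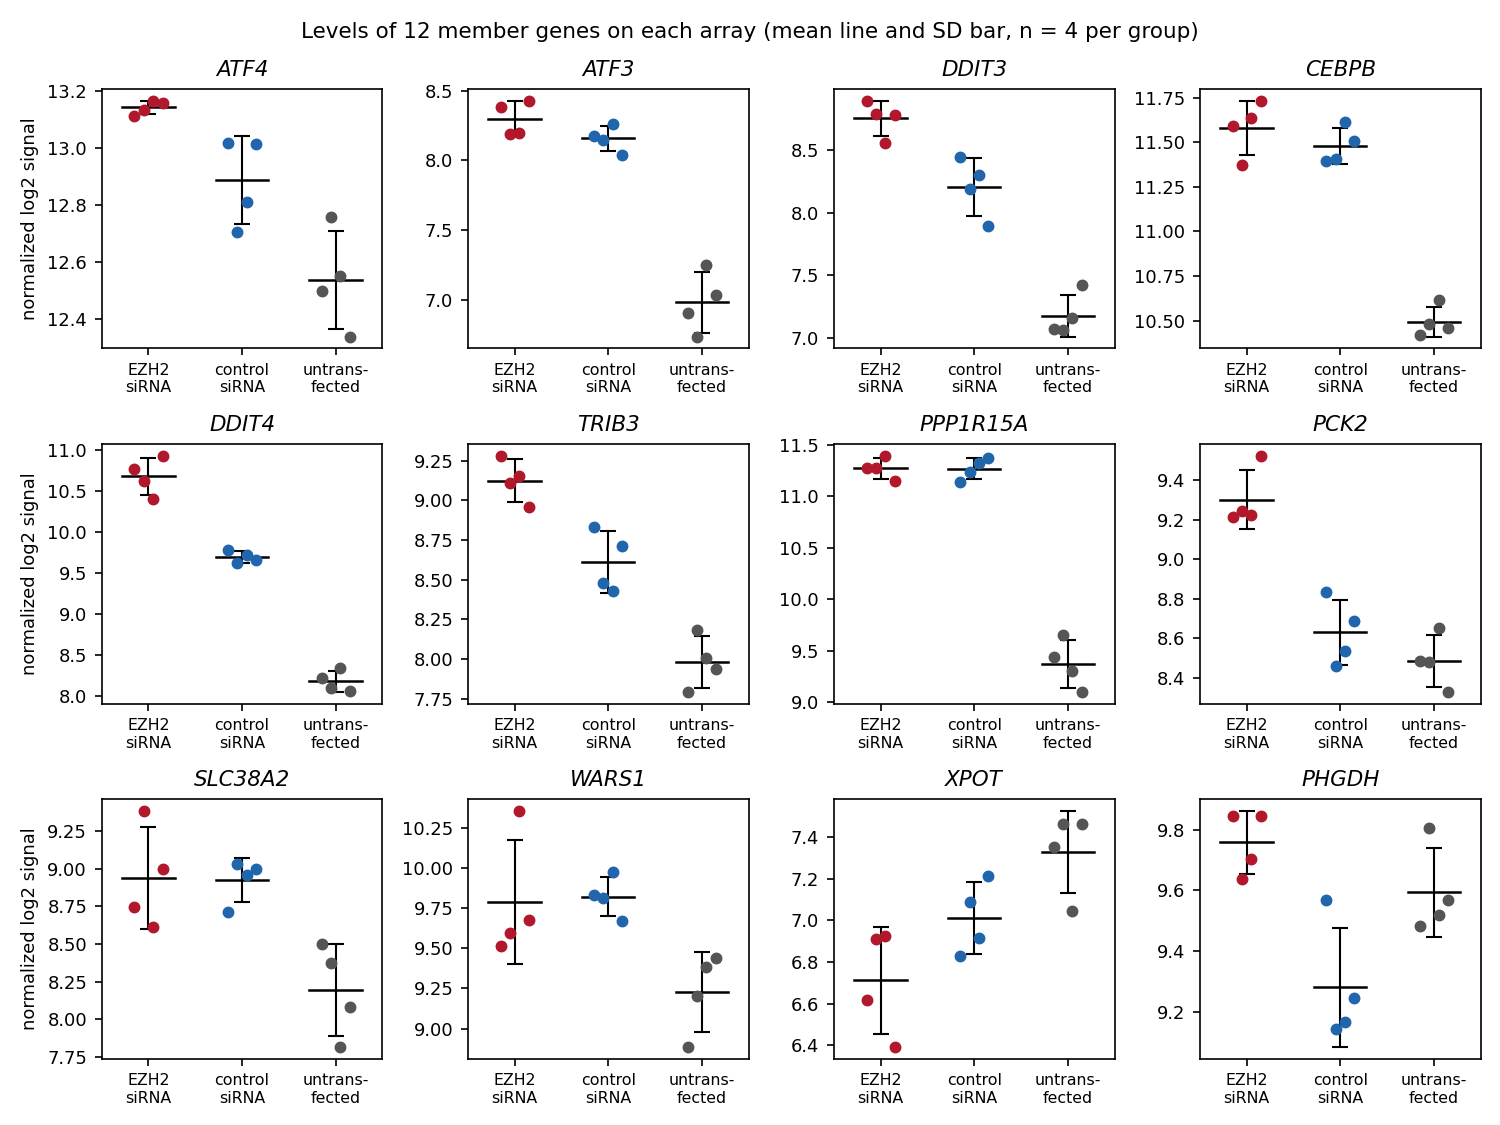
Normalized log2 signal (y axis) of 12 genes on each array, with EZH2 siRNA, control siRNA and untransfected cells from left to right. Points are arrays, lines are means and bars are SD (n = 4), and each panel has its own axis that does not start at 0. DDIT3, DDIT4 and TRIB3 step down from EZH2 siRNA to untransfected cells, ATF3, CEBPB and PPP1R15A are high in both transfected groups, and PCK2 is high with EZH2 siRNA alone.

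The feedback and stress effectors held the largest changes, with DDIT4 and TRIB3 rising at both steps and PPP1R15A at the control siRNA step. DDIT4 (REDD1), an inhibitor of mTORC1 signalling, read 10.76, 10.62, 10.40 and 10.93 with EZH2 siRNA, against 9.78, 9.62, 9.72 and 9.66 with control siRNA and 8.22, 8.09, 8.34 and 8.06 in untransfected cells. The groups were far apart relative to their spread, with no overlap. Compared with control siRNA, DDIT4 was 1.97-fold higher with EZH2 siRNA (log2 change 0.98, SE 0.12, adjusted p = 7.61e-05 in limma). It was 2.86-fold higher with control siRNA than in untransfected cells (adjusted p = 9.10e-08), and 5.64-fold higher with EZH2 siRNA than in untransfected cells (adjusted p = 2.60e-11). Its rise against control siRNA kept its call in 24 of the 25 alternatives, and was 0.66 (adjusted p = 0.107) under the 75th percentile scaling.

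TRIB3, a pseudokinase that binds ATF4 and restrains it, read 9.28, 9.11, 9.15 and 8.96 with EZH2 siRNA, against 8.83, 8.48, 8.43 and 8.71 with control siRNA and 7.79, 8.18, 8.00 and 7.93 in untransfected cells. No 2 groups overlapped. The rises were 0.51 with EZH2 siRNA against control siRNA (adjusted p = 0.0235 in limma) and 0.63 with control siRNA against untransfected cells (adjusted p = 0.00322). Without control array 2 or 3 or EZH2 siRNA array 1 the first call was lost (adjusted p 0.0975 to 0.106).

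PPP1R15A (GADD34), which brings protein phosphatase 1 to eIF2 alpha, read 11.28, 11.28, 11.40 and 11.15 with EZH2 siRNA, against 11.14, 11.24, 11.32 and 11.37 with control siRNA and 9.44, 9.65, 9.30 and 9.10 in untransfected cells. The transfected groups lay on top of each other, well above all untransfected arrays. PPP1R15A rose 3.72-fold with control siRNA (log2 change 1.90, SE 0.12, adjusted p = 3.43e-09 in limma), and EZH2 siRNA differed from control siRNA by 0.0049 (adjusted p = 0.989, 95% confidence interval -0.25 to 0.26).

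The other 3 effectors were not called at either step. CHAC1, which degrades glutathione, had 0.24 and 0.09, and SESN2, a leucine sensor that restrains mTORC1, had -0.04 and 0.38 for EZH2 siRNA against control siRNA and control siRNA against untransfected cells. VLDLR, a lipoprotein receptor, had -0.34 and 0.14. In untransfected cells CHAC1 was above background on 3 of 4 arrays and SESN2 on 2 of 4, so their changes are understated there.

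Among the 9 tested enzymes, PCK2 and PHGDH rose with EZH2 siRNA against control siRNA. With control siRNA 0 of the 9 were called in limma, and 1 higher and 2 lower had an unadjusted p under 0.05. PCK2, the mitochondrial phosphoenolpyruvate carboxykinase, read 9.21, 9.24, 9.23 and 9.52 with EZH2 siRNA, against 8.83, 8.46, 8.54 and 8.69 with control siRNA and 8.49, 8.48, 8.65 and 8.33 in untransfected cells (probe ILMN_1671791). The EZH2 siRNA arrays lay above all others, and the other groups overlapped. This was a rise of 1.59-fold against control siRNA (log2 change 0.67, SE 0.12, adjusted p = 0.00286 in limma), beside 0.14 for control siRNA against untransfected cells (adjusted p = 0.589).

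The other PCK2 probes were dimmer and did not pass the test. Probe ILMN_1760649 read 6.99, 6.78, 6.64 and 6.92 with EZH2 siRNA, against 6.57, 6.46, 6.59 and 6.53 with control siRNA and 6.68, 6.70, 7.09 and 7.04 in untransfected cells. EZH2 siRNA arrays again stood above control siRNA arrays, but here the control siRNA arrays were the lowest of the 3 groups. Its change was 0.29 (adjusted p = 0.196 in limma), and probe ILMN_1802699, above background on 1 of 4 EZH2 siRNA, 4 of 4 control siRNA and 1 of 4 untransfected arrays, had -0.16 (adjusted p = 0.511). Averaged over its tested probes PCK2 changed by 0.27 and lost its call (adjusted p = 0.113).

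PHGDH, the first enzyme of serine synthesis, read 9.85, 9.64, 9.70 and 9.84 with EZH2 siRNA, against 9.57, 9.14, 9.17 and 9.25 with control siRNA and 9.48, 9.81, 9.52 and 9.57 in untransfected cells. The control siRNA arrays were the low group: EZH2 siRNA arrays lay above all of them but overlapped the untransfected arrays. PHGDH rose by 0.48 against control siRNA (SE 0.12, adjusted p = 0.0304 in limma), while control siRNA stood at -0.31 against untransfected cells (adjusted p = 0.146) and EZH2 siRNA at 0.16 against untransfected cells (adjusted p = 0.395). Its array values are given although its largest called change stayed under the 0.5 required for that, and it was chosen after its values were seen. The call was lost without control array 2, 3 or 4 or EZH2 siRNA array 1 or 4 (adjusted p 0.0884 to 0.118).

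No other gene of the serine and one-carbon pathway was called in that comparison. PSAT1 and PSPH, the next enzymes of serine synthesis, had 0.08 and 0.24, and the mitochondrial folate enzymes SHMT2 and MTHFD2 had 0.10 and -0.15 for EZH2 siRNA against control siRNA. The other PSPH probe had 0.39 (adjusted p = 0.0880 in limma). CTH and CBS, of the transsulfuration route to cysteine, had 0.36 and 0.15, and the dimmer CTH probe had 0.03. ASNS had 0.14 and 0.13 on its probes (adjusted p = 0.612 and 0.771).

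Only against untransfected cells were more enzymes called with EZH2 siRNA. ASNS rose by 0.38 on the brighter probe (adjusted p = 0.0407 in limma) and stood at 0.16 on the other (adjusted p = 0.599). CBS rose by 0.50 (adjusted p = 0.0299) and CHAC1 of the effectors by 0.34 (adjusted p = 0.0392). The calls were lost in 15 of 25 alternatives for ASNS, 8 of 25 for CBS and 15 of 24 for CHAC1.

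Of the 7 amino acid transporters, SLC38A2 rose, at the control siRNA step. SLC38A2 (SNAT2), which imports neutral amino acids such as glutamine and alanine and is induced by their shortage, read 8.74, 9.38, 8.62 and 9.00 with EZH2 siRNA, against 8.71, 9.03, 8.96 and 9.00 with control siRNA and 8.50, 8.38, 7.82 and 8.08 in untransfected cells. Each transfected array lay above each untransfected one, and the transfected groups overlapped, with EZH2 siRNA array 2 the highest. SLC38A2 rose by 0.73 with control siRNA (SE 0.16, adjusted p = 0.00891 in limma), and EZH2 siRNA differed from control siRNA by 0.0085 (adjusted p = 0.985).

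Between EZH2 siRNA and control siRNA 0 of the 7 transporters were called in limma, and 1, SLC1A4, had an unadjusted p under 0.05. SLC7A11, which exchanges cystine for glutamate, had -0.08, and SLC7A5, which carries leucine and other large neutral amino acids, had 0.20. SLC3A2, the heavy chain shared by these carriers, had 0.12, and its other probe 0.39 (adjusted p = 0.199 in limma). The arginine and lysine carrier SLC7A1 had 0.09, and the neutral amino acid carriers SLC1A5 and SLC1A4 had -0.04 and -0.33. Against untransfected cells SLC3A2 rose with EZH2 siRNA on both probes, by 0.39 and 0.63 (adjusted p = 0.0349 and 0.0137), and the call of the first probe, which stands for the gene, was lost in 10 of 25 alternatives.

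The tRNA synthetases and the tRNA export receptor XPOT were not called between EZH2 siRNA and control siRNA. Of the 10, 0 passed in limma, and 1 higher (SARS1) and 2 lower (NARS1 and XPOT) had an unadjusted p under 0.05. Their changes ran from -0.34 for NARS1, which charges asparagine, to 0.35 for SARS1, which charges serine. The EZH2 siRNA arrays did not overlap the control arrays in either gene. Both were picked as the extremes of the 10 by these same values, so this is no separate support. How many genes of the whole array lacked overlap was not counted. AARS1, GARS1, MARS1, EPRS1, IARS1 and YARS1, the synthetases for alanine, glycine, methionine, glutamate with proline, isoleucine and tyrosine, lay between -0.13 and 0.20.

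WARS1, the tryptophan synthetase, was the exception at the control siRNA step. Its brighter probe read 9.51, 9.60, 10.35 and 9.67 with EZH2 siRNA, against 9.83, 9.81, 9.97 and 9.67 with control siRNA and 8.89, 9.20, 9.38 and 9.44 in untransfected cells. Both transfected groups lay above the untransfected arrays, and EZH2 siRNA array 3 stood far above the others of its group. WARS1 rose by 0.59 with control siRNA (SE 0.16, adjusted p = 0.0340 in limma), and the dimmer probe had 0.43 (adjusted p = 0.113). The call was lost in 10 of the 25 alternatives, each omission of a single control array among them. WARS1 is also an interferon-induced gene, and interferon response genes rose at the same step, as given below; their part in its change was not tested.

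XPOT, which carries mature tRNA out of the nucleus, went the other way. It read 6.62, 6.91, 6.92 and 6.39 with EZH2 siRNA, against 6.83, 7.09, 6.92 and 7.21 with control siRNA and 7.35, 7.46, 7.04 and 7.46 in untransfected cells. EZH2 siRNA arrays lay below all untransfected arrays and overlapped the control arrays. XPOT fell by 0.62 with EZH2 siRNA against untransfected cells (adjusted p = 0.00512 in limma), while the single steps of -0.30 and -0.32 were not called. It was above background on 3 of 4 EZH2 siRNA arrays. In the same comparison NARS1 fell by 0.35 (adjusted p = 0.0444) and SARS1 rose by 0.46 (adjusted p = 0.0167). The NARS1 call was lost in 17 of 25 alternatives and the SARS1 call in 5.

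The calls were also counted by promoter sequence for the 33 genes with a promoter entry, and the difference between genes with and without the C/EBP-ATF element was not tested. Between EZH2 siRNA and control siRNA, 0 of the 13 genes with the element and 5 of the 20 without it rose. With control siRNA, 1 of the 13 (ATF3) and 7 of the 20 rose, and with EZH2 siRNA against untransfected cells 4 of the 13 and 11 of the 20 rose. Over all tested genes 2.02%, 4.75% and 9.87% were called higher in these comparisons, in the same order. The window covers only 300 bases, and no match in it says nothing about elements elsewhere in these genes.

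The steps differed for some genes when they were set against each other in the same fit. This contrast, EZH2 siRNA minus control siRNA less control siRNA minus untransfected, was added after the values were seen, and the control siRNA arrays enter it on both sides. It was called in 4 of the 37 genes, 3 below 0 and 1 above 0, beside 2.38% of all genes below 0 and 0.974% above 0. PPP1R15A had -1.89 (SE 0.21, adjusted p = 2.2e-05 in limma), ATF3 -1.04 (adjusted p = 0.0088) and CEBPB -0.88 (adjusted p = 0.0144), so their rise was larger at the control siRNA step than at the EZH2 siRNA step. PPP1R15A kept this call in all 24 alternatives run, while ATF3 lost it in 2 (without control array 3, among them) and CEBPB in 5 (without control array 3 or 4, among them). PHGDH had 0.79 (adjusted p = 0.0482), a call that was lost in 17 of 24 alternatives. For DDIT4 (-0.53, adjusted p = 0.218), DDIT3 (-0.48, adjusted p = 0.324), TRIB3 (-0.12, adjusted p = 0.872) and PCK2 (0.53, adjusted p = 0.216) the steps were not shown to differ.

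Other genes of the pathway were described from 7 lists that exclude the 38 genes. Over all genes, 2.02% were called higher and 2.73% lower between EZH2 siRNA and control siRNA. With control siRNA against untransfected cells these shares were 4.75% and 2.86%. An unadjusted p under 0.05 in limma was held by 3333 and 3423 of the 18177 tested probes, in the same order. The eIF2 alpha kinases with eIF2 and eIF2B, which stand upstream of ATF4, had 0 of 13 tested genes called between EZH2 siRNA and control siRNA, with a median of -0.12 and 1 unadjusted p under 0.05. With control siRNA 1 rose, EIF2AK2 (PKR), the kinase for double-stranded RNA, by 0.59 (adjusted p = 0.0434 in limma), a call lost in 13 of the 25 alternatives. EIF2AK3 (PERK), EIF2AK4 (GCN2) and EIF2AK1 (HRI), which respond to misfolded protein, missing amino acids and lack of heme, had 0.05, 0.07 and -0.25.

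A list of further ATF4 and CHOP target genes was called mainly in its rising members with control siRNA. Of 17 tested, 4 rose and 1 fell with control siRNA (median 0.14). HMOX1, a heme-degrading enzyme that other stress pathways also induce, rose by 2.36, TNFRSF10B, a death receptor, by 1.15 and GDF15, a stress cytokine, by 1.14. STC2 (0.81) and ERO1A, an oxidase of protein folding that fell by 0.50, complete the count, which is why they are named. The ERO1A call was lost in 10 of 25 alternatives. In the comparison of EZH2 siRNA with control siRNA 0 rose and 1 fell in limma, and 4 higher and 3 lower genes had an unadjusted p under 0.05 (median 0.01). The gene that fell was SLC38A1, a glutamine carrier related to SLC38A2, by 0.60 (adjusted p = 0.0328 in limma), a call lost in 11 of 25 alternatives. TNFRSF10B had -0.46 in this comparison (adjusted p = 0.103).

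The list for the ATF6 and XBP1 branches of the unfolded protein response had 0 of 17 tested genes called between EZH2 siRNA and control siRNA (median 0.000279). In it 1 higher and 1 lower gene had an unadjusted p under 0.05. With control siRNA 4 rose and 0 fell (median 0.11), led by XBP1 (0.46), EDEM1 (0.44) and HSPA5 (BiP), the main chaperone of the endoplasmic reticulum (0.38). MANF (0.36) is the remaining gene, named after its value was seen. Of these calls, 8 to 14 of the 25 alternatives lost each. The 10 other cytosolic synthetases and scaffold proteins had 0 called higher and 1 lower between EZH2 siRNA and control siRNA (median -0.14), FARSB of the phenylalanine synthetase, which fell by 0.59 (adjusted p = 0.0416). That call was lost in 14 of 25 alternatives.

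Interferon response genes moved at both steps at which ATF4 pathway genes moved. Of 19 tested, 7 rose between EZH2 siRNA and control siRNA (ISG15 by 1.01, BST2 by 0.65, IFI27 by 0.62) and 18 rose with control siRNA (MX1 by 4.53, IFI27 by 4.01, IFI6 by 3.82). The shares of all genes called higher were 2.02% and 4.75%. Of the 7, ISG15 kept its call in all 25 alternatives, and it alone kept it under the 75th percentile scaling. IFI27 lost its call in 3, BST2 in 7 and IRF7 in 8 of 25. OASL lost its call in 10, IFIT1 in 11 and IFIT3 in 13 of 24. The mean level of the 19 genes per array ran from 9.13 to 9.19 with EZH2 siRNA, from 8.77 to 8.93 with control siRNA and from 6.91 to 6.97 in untransfected cells. OAS2, OASL, IFI44L and XAF1, which are among the 18, were above background on 0 of 4 untransfected arrays and entered the test through the transfected groups alone, so their untransfected levels are upper bounds. The part of the interferon response in the changes of the 38 genes was not tested.

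**Figure D3:**
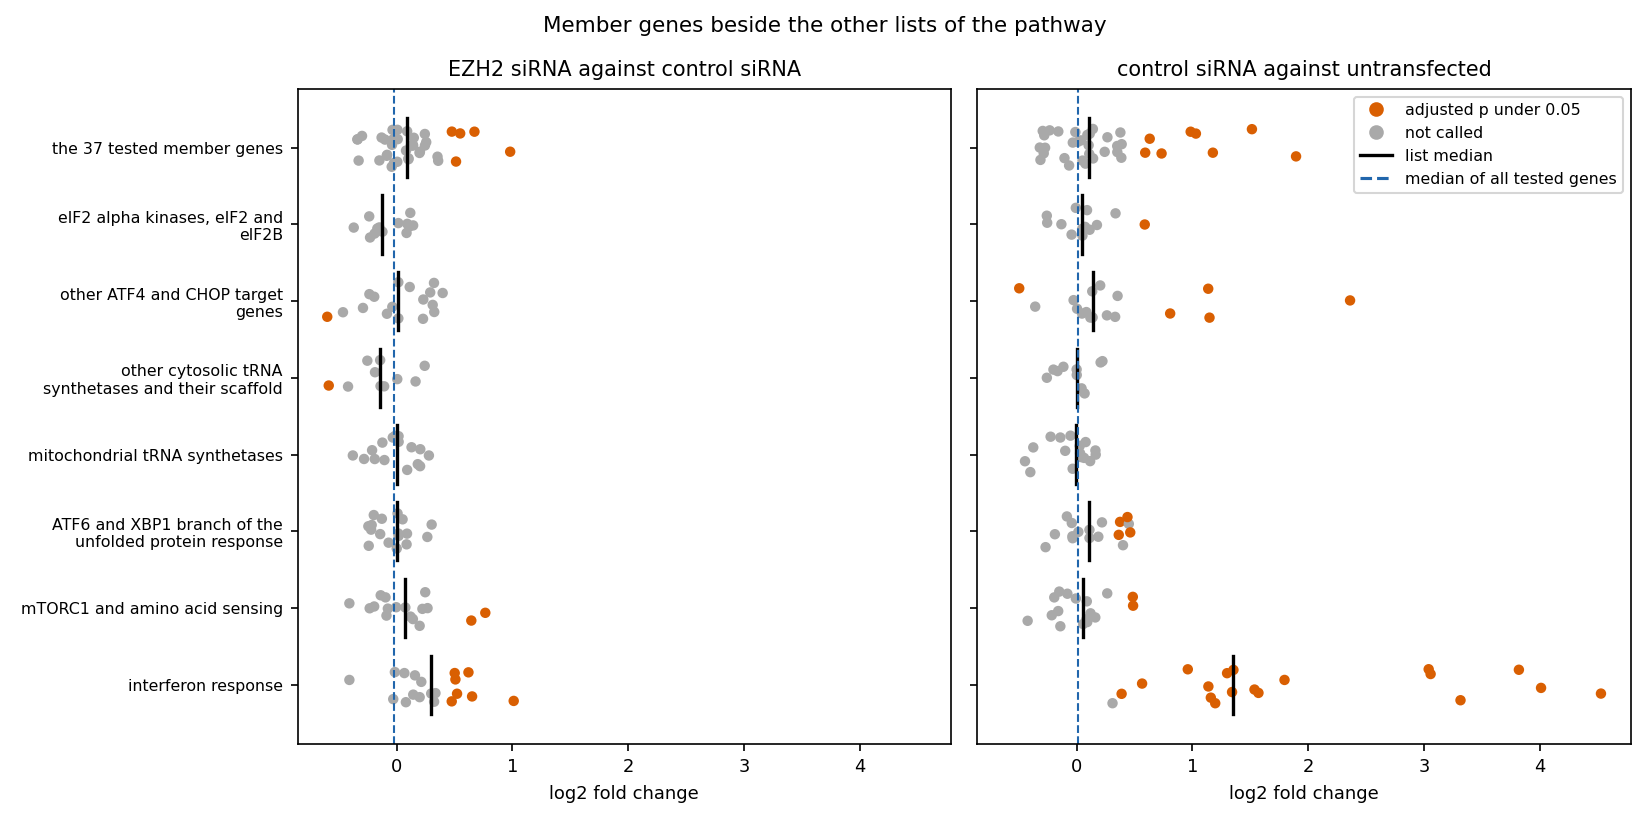
Log2 fold changes (x axis) of the 37 tested genes and of 7 lists from the pathway and the interferon response (y axis), for EZH2 siRNA against control siRNA on the left and control siRNA against untransfected cells on the right. Each point is a gene, orange where called, black bars are list medians and the dashed line is the median of all tested genes. The interferon list lies farthest right at both steps (medians 0.30 and 1.36), while the mitochondrial synthetases have medians of 0.0013 and -0.0032.

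Most calls between EZH2 siRNA and control siRNA depended on the scaling and on single arrays. Without the 3 dimmest arrays 2 of the 5 calls against control siRNA were left (DDIT4 and PCK2), and 2 with array brightness as a covariate. Without control array 2 or 3 or EZH2 siRNA array 1 the count was 2. ATF3, DDIT3, CEBPB, DDIT4 and PPP1R15A kept their calls between control siRNA and untransfected cells in all 25 alternatives.

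**Figure D4:**
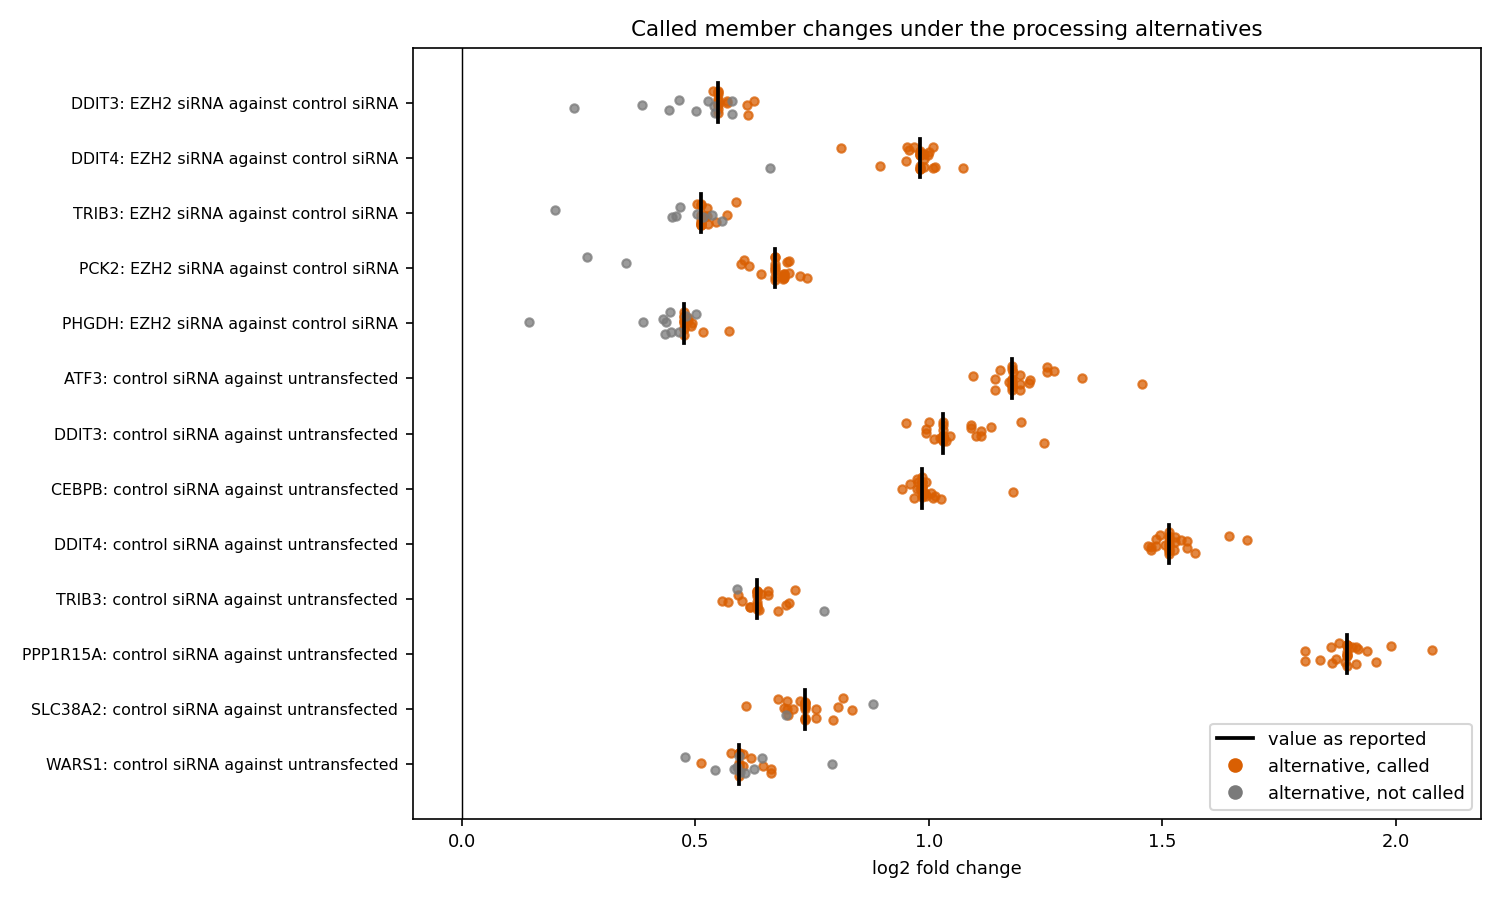
Log2 fold change (x axis) of each gene change called for EZH2 siRNA against control siRNA or for control siRNA against untransfected cells (y axis), as reported (black bar) and under the 25 alternatives (points, orange where still called). All points shown lie above 0. DDIT4 ranges from 0.66 to 1.07 against control siRNA and from 1.47 to 1.68 for control siRNA against untransfected cells, and DDIT3, TRIB3 and PHGDH hold most of the lost calls against control siRNA.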

How the data were processed

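The authors deposited bead array intensity values exported with BeadStudio 3.2, per the submitters' processing notes, and a table of log2 values. Quantile normalization of log2 raw intensity, with no background correction, matched the authors' deposited log2 values to within 0.00005, so that table served as an alternative. The series label names HumanHT-12 and the sample labels Human-6 version 3; the files hold 48803 probes. The background settings of the export were not stated, and 0 sample columns were left unused.

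Raw intensities were corrected with normexp (offset 50), quantile-normalized and put on the log2 scale in limma 3.58.1 under R 4.3.3. The offset compresses changes near background. The files carry no detection p, unlike the planned filter, so each array's background was taken from the mode of its signal and the values below it, mirrored. A probe was tested when above it at p under 0.01 on at least 4 of 12 arrays. GEO's platform annotation named 1 gene for 28098 probes, more than 1 for 13 and no gene for 20692; a gene's brightest tested probe stands for it.

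All 12 arrays were fitted in 1 model with 3 groups (lmFit, eBayes), adjusted over all 18177 tested probes (Benjamini-Hochberg), with calls at 0.05. The first and second comparisons share the control siRNA arrays. Array values are printed for ATF4 and for genes called with an absolute log2 change of at least 0.5, and up to 3 called genes per list are named. Members and lists were chosen with earlier results of these data known. Arrays limit precision by their number, 4 per group. Replicate numbers were not used as pairs in the main fit, and whether they pair the arrays was not settled. The sequence of 1 promoter match is not reported here. The method was tested on simulated data. Figures were drawn with matplotlib 3.10.9.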

Additional observations from a re-analysis of the deposited data

Results flagged for a closer look

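Over 111 sets of 4 arrays (37 genes in 3 groups), 4 held a single array set apart from the others by a gap that Dixon's criterion calls unusual, and chance gives about 1 in 20 such sets. CEBPG read 8.77 on EZH2 siRNA array 2, against 8.06 to 8.18 on the other EZH2 siRNA arrays. YARS1 on that array read 11.05, against 11.42 to 11.49. PCK2 read 9.52 on EZH2 siRNA array 4, against 9.21 to 9.24 on the others of that group, and its rise kept its call without that array. PSAT1 read 10.98 on untransfected array 4, the dimmest array, against 10.27 to 10.39 on the other untransfected arrays.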

How the results depend on the processing

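The alternatives that changed these counts by over 1.5 times were other scalings, another offset, array brightness, fitting 2 groups alone and leaving out arrays. Genes called between EZH2 siRNA and control siRNA numbered 5. They numbered 0 under the 75th percentile scaling, 2 when that percentile was taken over probes above background on all arrays, 3 with a normexp offset of 16, 2 with array brightness as a covariate and 2 without the 3 arrays of lowest mean signal. Leaving out 1 array gave 2 to 5. The 8 genes called between control siRNA and untransfected cells became 5 under each percentile scaling, and 7 to 9 without 1 array. The 17 called between EZH2 siRNA and untransfected cells became 6 and 8 under those scalings, 11 in a fit of 2 groups alone, 9 without the 3 dimmest arrays, and 11 to 19 without 1 array. The remaining alternatives moved the counts by less. Among the called gene changes that were followed through the alternatives, none turned direction. The member median between EZH2 siRNA and control siRNA did turn, from 0.09 to -0.19 under the 75th percentile scaling. The percentile over probes above background on all arrays moved the median of all probes to 0.25 between EZH2 siRNA and control siRNA, above the member median of 0.14. The causes were not tested. The replicate number as a block gave 5, 8 and 15 calls. After group means were removed, same-numbered arrays correlated at -0.11 to 0.24, -0.37 to -0.10 and -0.24 to 0.46 in the 3 comparisons. The correlation was over 0.1 in 3, 0 and 2 of the 4 pairs. With 4 pairs per comparison, these values cannot decide whether the numbers pair the arrays. Probes near background, such as those of SESN2, CHAC1 and XPOT, have compressed changes.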

Other observations

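DDIT4 and SESN2 restrain mTORC1 signalling. Of 17 tested genes of mTORC1 and amino acid sensing, 2 were called higher and 0 lower by limma with EZH2 siRNA against control siRNA (median 0.07). Over all genes 2.02% were called higher. In the list 3 higher genes and 1 lower gene had an unadjusted p under 0.05, beside 3333 of 18177 tested probes over the whole array. The 2 called were LAMTOR4 (0.77, adjusted p = 0.0194) and LAMTOR2 (0.64, adjusted p = 0.0432), subunits of the Ragulator complex that anchors mTORC1 to the lysosome. Of the other subunits in the list that were tested, LAMTOR5 had -0.41 (adjusted p = 0.0579) and LAMTOR3 had -0.08, and against untransfected cells LAMTOR5 was called lower with EZH2 siRNA (adjusted p = 0.0216). LAMTOR4 lost its call in 8 of 25 alternatives and LAMTOR2 in 14. With control siRNA against untransfected cells 2 other members rose, TSC1 (0.49), a brake on mTORC1, and CASTOR1 (0.49), an arginine sensor, which lost their calls in 9 and 11 alternatives. The share of all genes called higher at that step was 4.75%.

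Mitochondrial tRNA synthetases had 0 of 16 tested members called in limma at either step, with medians of 0.0013 and -0.0032. Over all genes 2.02% were called higher and 2.73% lower between EZH2 siRNA and control siRNA (median -0.02). Between control siRNA and untransfected cells these were 4.75% and 2.86% (median 0.02). At an unadjusted p under 0.05, 1 was higher and 2 lower between EZH2 siRNA and control siRNA, and 3 were lower between control siRNA and untransfected cells. Such a p was held by 3333 and 3423 of the 18177 tested probes in limma, in the same order.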
